A study of Mus musculus with 15 samples.

Results

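Matrix metalloproteinases, the plasminogen system and their inhibitors form a set of 38 genes whose products cut, or guard, the extracellular matrix. Each was read from the probe set that carried its symbol alone in the platform annotation, and where a gene had several such probe sets, from the brightest on average. All 38 were found, among 19297 genes read in the same way. The cells were Myc-CaP, written MycCap in the labels, a line grown from a prostate tumour of a mouse with a Myc transgene. They were transfected with a control vector (VEC) or with a form of Twist1, selected and harvested at confluence: wild type (WT), AQA, DQD, or F191G, which the series' title ties to a Twist-box mutation. Every group has 3 arrays, named replicates A, B and C. The labels do not say whether a group is a clone or a pool, nor whether its arrays came from separate cultures, so p-values measure the spread between arrays, which may be technical. All 5 groups share the Myc background of the line.

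Metalloproteinases (MMPs) are zinc enzymes made as inactive precursors, and their activity is held down by the 4 tissue inhibitors, the TIMPs, and at the cell surface by Reck. Urokinase and tissue plasminogen activator turn plasminogen into plasmin, which cleaves fibrin and can activate several MMPs. ADAMs shed membrane-bound growth factors and receptors, while ADAMTS enzymes cut matrix proteoglycans and other secreted proteins. Twist1, a basic helix-loop-helix factor of epithelial-mesenchymal transition, binds E-box sequences in DNA. Transcript levels do not show enzyme activity, which depends on the activation and inhibition of the proteins.

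Values are log2 intensities from single-colour Affymetrix arrays. By the labels' array batch, A comprises 8 arrays (2 each of VEC, WT and AQA, 1 each of DQD and F191G) and B the other 7. The deposited values carry no batch difference within groups: the fitted offset between the batches was under 1e-06 in all 19297 genes, so it had been taken out before deposit, and within-batch values below are of values treated in that way. Within batch B they rest on 1 array each of VEC, WT and AQA, and within batch A on 1 array each of DQD and F191G. They are therefore no separate support for a difference. WT replicate A stood apart from the other arrays, with correlations over all 23811 probe sets down to 0.975 against 0.992 among the remaining 14. The Twist1 probe set averaged 6.43 ± 0.29 (SD, n = 3) in VEC and 6.68 to 6.79 in the 4 forms, without a called difference, after a normalization by Twist1 that the design text names but does not define, and since the stretch of transcript it reads is unknown here, it does not check the labels. Of 8 epithelial genes, Epcam, Cdh1, Krt5 and Krt18 lay below the array median of all genes on all 15 arrays, Krt14 on 14, Cldn4 on 10, Krt19 on 1 and Krt8 on 0. VEC replicates A and C stood apart in Krt19 and Krt14. In Krt8 only replicate A did, at 8.89, while C read 8.14 against 8.20 to 8.39 on the WT arrays. Krt5 read 6.01 on VEC replicate A and 5.85 on both VEC replicates B and C. Krt19 read 10.28, 8.42 and 7.15 on VEC replicates A, C and B, and 6.29 to 7.23 on the 12 Twist1-form arrays. Krt14 read 6.81, 6.33 and 5.66 on VEC replicates A, C and B. The epithelial list mean was 6.91 on VEC replicate A, 6.48 on C and 6.10 on B, and ran from 5.89 to 6.18 on the other 12. Without Krt19 it was 6.42, 6.20 and 5.95 on VEC replicates A, C and B, and 5.83 to 6.13 on the other 12. Of 9 fibroblast genes 4 lay below the median on all 15 arrays, as did 8 of 10 macrophage and neutrophil genes and 5 of 6 endothelial genes. The mean of the macrophage and neutrophil list ran from 5.03 to 5.08 on VEC arrays, 5.06 to 5.14 on WT, 4.97 to 5.08 on AQA, 4.97 to 5.01 on DQD and 4.98 to 5.02 on F191G arrays. Ptprc, its pan-leukocyte marker, stayed between 4.40 and 4.73, below the array median on all 15 arrays. Cd68 ran from 6.33 to 7.45 and lay below the median on 0 arrays. Cd14 ran from 6.22 to 6.93 and lay below it on 7. The fibroblast list mean ran from 5.91 to 5.95 on VEC arrays, 5.93 to 6.02 on WT, 5.88 to 5.93 on AQA, 5.70 to 5.83 on DQD and 5.81 to 5.90 on F191G arrays. In that list Col1a1, Col1a2 and Pdgfra lay below the array median on 0 arrays, Fbln1 on 2 and Col3a1 on 6. The part of such cells in the results was not tested. In bulk RNA, fewer cells of a type and less RNA per cell cannot be told apart.

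Many members read dim in these cells. Over all 15 arrays, 24 of the 38 lay below the array median of all genes, which ran from 6.29 to 6.42, and 13 lay above it. Serpinf1 alone lay on both sides. Below it were 9 of the 10 secreted MMPs, the exception being Mmp11, and all 4 membrane-type MMPs. Above it stood Timp1, Timp2, Reck, 5 of the 7 ADAMs, Adamts1, Adamts9, Plat and Plaur. No detection calls were used here, so whether a dim probe set saw its transcript is not known, and levels of different probe sets are not comparable as amounts of RNA.

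**Figure D1:**
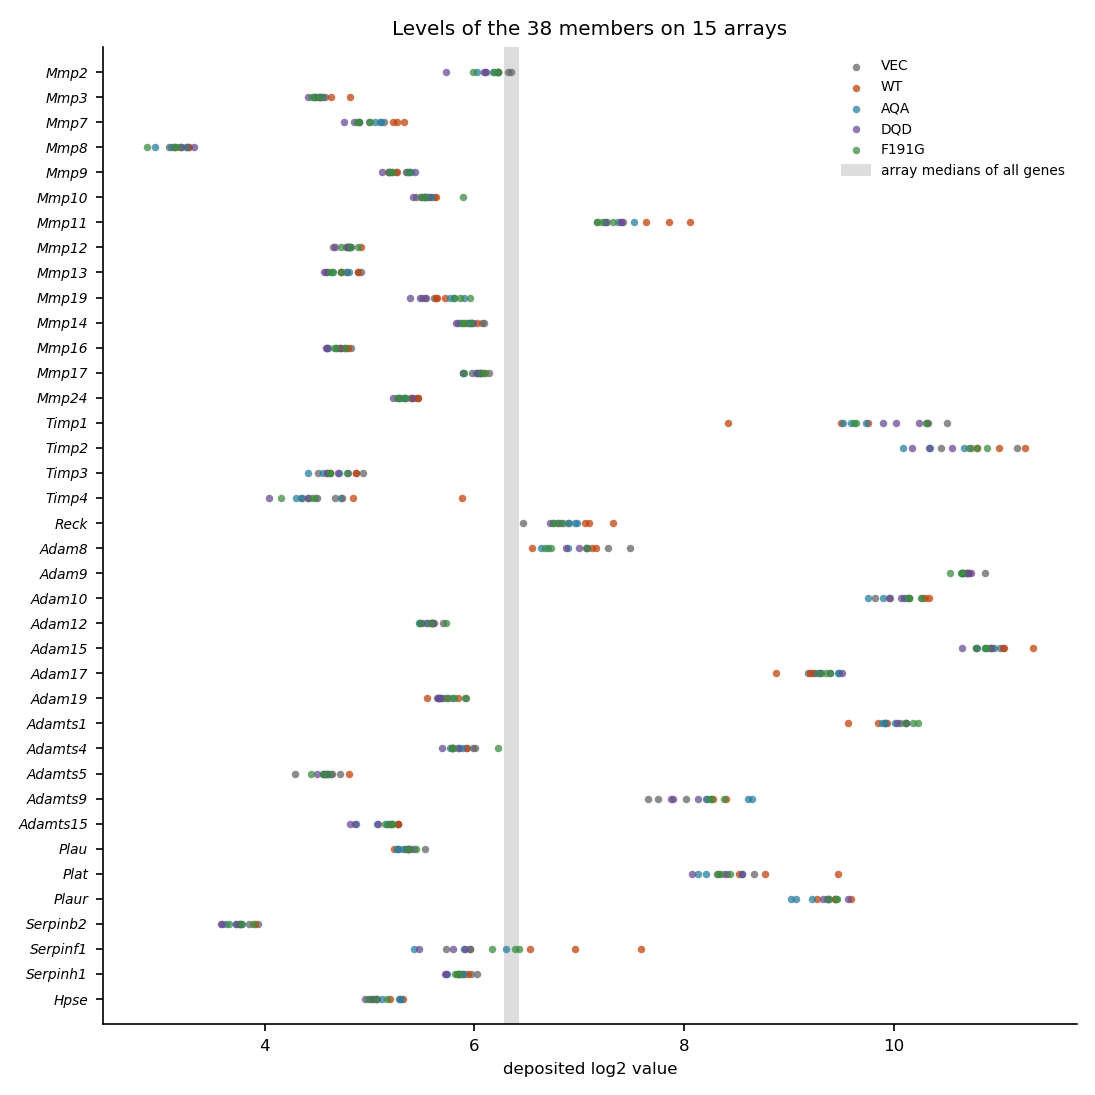
Deposited log2 values (x axis) of each member (y axis) on all 15 arrays, coloured by group, with the range of the array medians of all genes in grey. Most secreted and all membrane-type MMPs lie left of the grey band on every array, and Timp1, Timp4, Plat and Serpinf1 each have a WT array far from the rest.

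In a linear model with group and batch fitted to all 15 arrays by limma, 7 of the 38 members passed an adjusted p of 0.05 between WT and VEC, where 12.8% of all genes were called. Mmp7, Mmp11, Reck, Adamts9, Serpinf1 and Hpse rose and Timp1 fell. The median member differed by 0.00694 on the log2 scale, against -0.00927 for all genes. In absolute size the median difference was 0.111 for members and 0.0994 for all genes. These 7 calls did not withstand every leave-out: with VEC replicate C left out limma called 0 members (7 at an unadjusted p under 0.05), with VEC replicate A left out 4, and with WT replicate A left out Mmp11, Timp1 and Serpinf1. VEC replicate C is the only VEC array of batch B. Without it the calls among 65 other genes of the pathway also fell, from 9 to 1. The shares of all genes called in these leave-outs are not given, so the losses cannot be compared with all genes. Fitted on the VEC and WT arrays alone, or with the Twist1 value as a covariate, limma called 0 (7 and 8 at an unadjusted p under 0.05). Fitting fewer arrays leaves fewer residual degrees of freedom. Twist1 averaged 6.43 in VEC and 6.79 in WT, so adjusting for it may also remove part of the difference between the groups. Against VEC, Adamts9 rose in AQA (1 of 38, where 0.881% of all genes were called), and 4 members were called without WT replicate A but 0 without replicate A or C of VEC or AQA, or replicate C of DQD or F191G (6 to 13 at an unadjusted p under 0.05). By limma 0 members were called in F191G (0.0985% of all genes) and 0 in DQD (0.814%), and 0 in each with VEC replicate A left out (8 and 8 at an unadjusted p under 0.05). An unadjusted p under 0.05 was reached by 5 members in F191G (11.7% of all genes), 10 in AQA (15.7%) and 9 in DQD (24%). All 4 comparisons share the VEC arrays.

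Set against WT, the DQD form differed in 14 of 38 members, where 24.5% of all genes were called. Of the members 3 were higher and 11 lower, where 11.8% and 12.8% of all genes were. The fitted array median lay 0.11 lower in DQD than in WT, while the median difference of all genes was -0.0665. With each array centred on its median 9 members were called, 4 higher and 5 lower. Centring thus shifted genes by more than their median difference, and 60% of all genes then read higher in DQD (37.4% before). Leaving out DQD replicate A gave 0 calls by limma (11 at an unadjusted p under 0.05), DQD replicate C or WT replicate A gave 5, and WT replicate C gave 8. F191G differed from WT in 3 members, Mmp7 and Mmp11 lower and Adamts1 higher, where 7.13% of all genes were called. Leaving out WT replicate A, or replicate B or C of F191G, gave 1 call, and leaving out replicate A of F191G gave 0 by limma (6 with an unadjusted p below 0.05). Leaving out WT replicate B gave 8, and replicate C gave 5. By limma 0 members were called between AQA and WT (12 at an unadjusted p under 0.05, with 0.726% of all genes called), but 7 with WT replicate B left out and 5 with AQA replicate B left out. Between DQD and AQA limma called 0 members (0.0259% of all genes), and 6 reached an unadjusted p under 0.05 (14.6% of all genes). These comparisons share the WT or AQA arrays with each other and with those against VEC. Members whose arrays did not overlap at all were 11 of 38 between WT and VEC (31.6% of all genes) and 11 between F191G and VEC (21.1%). Between AQA and VEC they were 13 (25.8%), 3 higher and 10 lower, against 9.62% and 16.2% of all genes. Between DQD and VEC they were 10 (34.8%). Against WT they were 13 in F191G (34.4%), 14 in AQA (30%; 12 lower, where 18.3% of all genes were) and 18 in DQD (48.2%; 3 higher and 15 lower, against 20.2% and 27.9%). An unadjusted p under 0.05 was reached by 9 members between WT and VEC (27.6% of all genes), 13 between F191G and WT (27.7%), 12 between AQA and WT (25%) and 18 between DQD and WT (40.8%). Called in the lower direction were 0 members in AQA against VEC (0.368% of all genes) and 2 in F191G against WT (3.95%, and 3.18% higher). An F-test over the 5 groups called Mmp7, Mmp11, Mmp19, Adamts9 and Serpinf1 (5 of 38, where 10.1% of all genes were called). It called 1 member without VEC replicate C, AQA replicate C or DQD replicate A, and 3 without replicate C of WT, DQD or F191G.

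**Figure D2:**
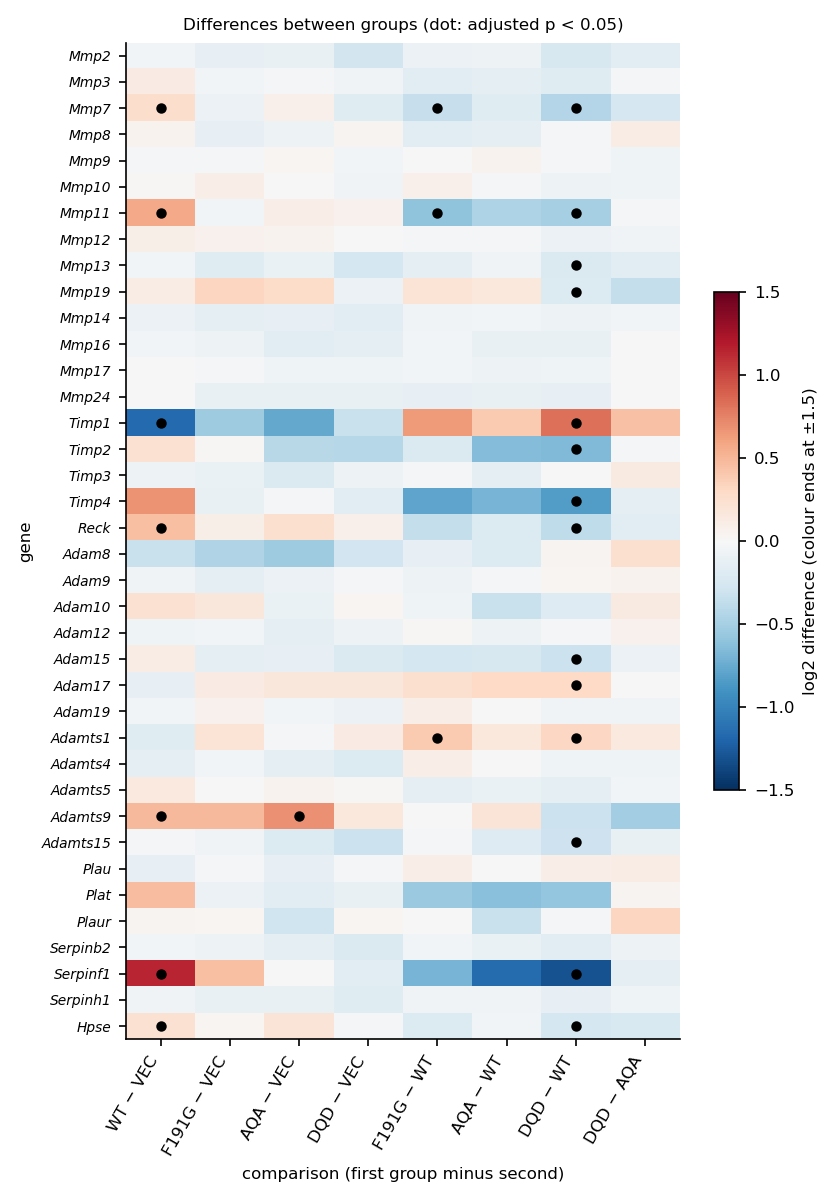
Log2 difference (colour, first group minus second) of each member (rows) in the 8 comparisons (columns), with a dot where limma's adjusted p was under 0.05. Timp1 and Serpinf1 carry the deepest colours, in opposite directions, while the membrane-type MMPs are pale across all columns.

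Among the 10 secreted MMPs, 2 rose and 0 fell between WT and VEC by limma. Mmp11, stromelysin 3, which is known from the stroma of carcinomas and cleaves serpins rather than most matrix proteins, read 7.17, 7.42 and 7.27 on VEC replicates A, B and C and 8.06, 7.63 and 7.86 on the WT arrays. It read 7.25, 7.52 and 7.37 in AQA, 7.40, 7.40 and 7.25 in DQD, and 7.17, 7.22 and 7.33 in F191G. All 3 WT arrays thus lay above the 12 others, which overlapped among themselves. The rise over VEC was 0.56 (SE 0.108, 1.48-fold, limma adjusted p = 0.00992), at 0.55 within batch A and 0.59 within batch B. Mmp11 fell from WT to F191G by 0.61 (SE 0.111, limma adjusted p = 0.0219) and from WT to DQD by 0.50 (SE 0.111, limma adjusted p = 0.0142; -0.39 after median centring). AQA differed from WT by -0.47 (SE 0.108, limma adjusted p = 0.0548). Without VEC replicate C the rise over VEC lost its call (0.55, adjusted p = 0.0655).

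Mmp7, matrilysin, an epithelial MMP that cleaves E-cadherin and pro-defensins, read 4.89, 5.14 and 5.00 in VEC and 5.33, 5.22 and 5.27 in WT. Its values were 5.05, 5.11 and 5.10 in AQA, 4.75, 4.85 and 4.89 in DQD, and 5.00, 4.88 and 4.90 in F191G. WT was again the highest group without overlap, in a probe set below the array median. The rise over VEC was 0.26 (SE 0.0708, 1.20-fold, limma adjusted p = 0.0327), at 0.26 within batch A and 0.27 within batch B, and its call was lost without VEC replicate A or C or without WT replicate A or C. Mmp7 fell from WT to DQD by 0.44 (SE 0.0726, limma adjusted p = 0.00774; -0.33 after median centring) and from WT to F191G by 0.34 (SE 0.0726, limma adjusted p = 0.0313).

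Mmp19, whose product cleaves basement membrane proteins, was ordered differently. It read 5.50, 5.62 and 5.53 in VEC, 5.72, 5.63 and 5.64 in WT, 5.90, 5.80 and 5.77 in AQA, 5.38, 5.52 and 5.48 in DQD, and 5.86, 5.95 and 5.80 in F191G. AQA and F191G overlapped each other and lay above the other 3 groups, and DQD overlapped VEC. F191G differed from VEC by 0.32 (SE 0.0665, limma adjusted p = 0.0949) and AQA by 0.27 (SE 0.0649, limma adjusted p = 0.0686), neither of them called. Mmp19 fell from WT to DQD by 0.20 (SE 0.0665, limma adjusted p = 0.0437), but after centring the difference was -0.09 (adjusted p = 0.38).

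Mmp13, a collagenase, read 4.73, 4.89 and 4.92 in VEC, 4.73, 4.78 and 4.89 in WT, 4.80, 4.77 and 4.65 in AQA, 4.59, 4.59 and 4.57 in DQD, and 4.73, 4.62 and 4.64 in F191G. DQD was the lowest group, and the other 4 overlapped. It fell from WT to DQD by 0.22 (SE 0.0712, limma adjusted p = 0.0431), against -0.11 after centring (adjusted p = 0.333). The other 6 secreted MMPs were called in none of the 8 comparisons. These are the gelatinases Mmp2 and Mmp9, the stromelysins Mmp3 and Mmp10, the neutrophil collagenase Mmp8 and the macrophage elastase Mmp12. Their group means spanned from 0.0684 (Mmp9) to 0.278 (Mmp2) on the log2 scale.

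The 4 membrane-type MMPs, which act at the cell surface, were called in none of the 8 comparisons or in the F-test. Mmp14, the main activator of pro-Mmp2, read 5.98, 6.07 and 6.09 in VEC, 6.03, 5.95 and 5.92 in WT, 5.94, 5.96 and 5.87 in AQA, 5.85, 5.83 and 5.98 in DQD, and 5.90, 5.96 and 5.89 in F191G. WT overlapped VEC (difference -0.08, SE 0.0623, limma adjusted p = 0.447). Mmp17, which is tethered by a lipid anchor, read 5.98, 6.05 and 6.14 in VEC, 6.07, 6.09 and 6.03 in WT, 5.89, 6.02 and 6.05 in AQA, 6.07, 5.89 and 6.03 in DQD, and 6.07, 6.11 and 5.90 in F191G, and all groups overlapped. Group means of Mmp16 and Mmp24 spanned 0.156 and 0.119.

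Of the 5 MMP inhibitors, Reck rose and Timp1 fell between WT and VEC. Timp1, a broad secreted inhibitor that also stabilises pro-Mmp9, read 10.33, 10.32 and 10.51 in VEC and 8.42, 9.50 and 9.75 in WT. It read 9.74, 9.51 and 9.59 in AQA, 10.24, 9.90 and 10.03 in DQD, and 10.31, 9.63 and 9.65 in F191G. Every array with a Twist1 form lay below the lowest VEC array, F191G replicate A by the least, and WT replicate A was the lowest of all. Timp1 was lower without overlap in each of the 4 comparisons against VEC, as were 16.4% of all genes for WT, 16.2% for AQA, 22.1% for DQD and 13.3% for F191G. In WT the fall was 1.16 (SE 0.274, 2.24-fold, limma adjusted p = 0.0191), a log2 difference of -1.36 within batch A and -0.76 within batch B. Without WT replicate A it was -0.74 and still called (adjusted p = 0.0305), and without VEC replicate C it was -1.08 (adjusted p = 0.102). The other forms differed from VEC by -0.77 in AQA (SE 0.274, limma adjusted p = 0.196), -0.53 in F191G (SE 0.280, adjusted p = 0.495) and -0.33 in DQD (SE 0.280, adjusted p = 0.491). Fitted on the AQA and VEC arrays alone, the AQA difference was called (adjusted p = 0.0391). Timp1 was higher in DQD than in WT by 0.83 (SE 0.280, limma adjusted p = 0.0469; 0.94 after centring), at 1.28 within batch A and 0.21 within batch B, and by 0.45 without WT replicate A (adjusted p = 0.0925).

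Reck, a membrane-anchored inhibitor of several MMPs, read 6.46, 6.90 and 6.75 in VEC, 7.32, 7.06 and 7.09 in WT, 6.89, 6.98 and 6.96 in AQA, 6.83, 6.80 and 6.72 in DQD, and 6.75, 6.84 and 6.79 in F191G. WT lay above all other arrays. The rise over VEC was 0.45 (SE 0.101, 1.37-fold, limma adjusted p = 0.0158), at 0.51 within batch A and 0.34 within batch B. It was 0.36 without WT replicate A (adjusted p = 0.0613) and 0.48 without VEC replicate C (adjusted p = 0.0732). Reck fell from WT to DQD by 0.38 (SE 0.103, limma adjusted p = 0.0242; -0.27 and adjusted p = 0.0713 after centring), and F191G differed from WT by -0.36 (SE 0.103, adjusted p = 0.0517).

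Timp2, which inhibits MMPs and also helps Mmp14 to activate pro-Mmp2, read 11.18, 10.45 and 10.74 in VEC, 11.26, 10.80 and 11.01 in WT, 10.09, 10.67 and 10.35 in AQA, 10.18, 10.56 and 10.34 in DQD, and 10.89, 10.72 and 10.80 in F191G. WT and VEC overlapped, and AQA and DQD lay below WT. The fall from WT to DQD was 0.67 (SE 0.190, limma adjusted p = 0.0268; -0.56 after centring), and AQA differed from WT by -0.65 (SE 0.185, adjusted p = 0.0653). Timp4, a TIMP known from the heart, read 4.36, 4.67 and 4.41 in VEC, 5.88, 4.73 and 4.85 in WT, 4.30, 4.73 and 4.35 in AQA, 4.04, 4.50 and 4.42 in DQD, and 4.15, 4.48 and 4.45 in F191G. WT replicate A stood more than a log2 unit above every other array. Timp4 fell from WT to DQD by 0.84 (SE 0.254, limma adjusted p = 0.0332; -0.73 after centring), at -1.27 within batch A and -0.39 within batch B, and by a log2 difference of -0.49 without WT replicate A (adjusted p = 0.0546). Timp3, which binds to the matrix, was called in no comparison, with group means spanning 0.212.

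Of the 7 ADAMs, 0 were called by limma between WT and VEC, and none against VEC in any form. Adam15, an ADAM with an integrin-binding motif, read 11.02, 11.04 and 10.93 in VEC, 11.33, 10.94 and 11.05 in WT, 10.87, 10.96 and 10.79 in AQA, 10.65, 10.92 and 10.78 in DQD, and 10.78, 10.89 and 10.87 in F191G. DQD and F191G lay below both VEC and WT. Adam15 fell from WT to DQD by 0.32 (SE 0.0994, limma adjusted p = 0.0355), at -0.48 within batch A and -0.20 within batch B, with -0.21 after centring (adjusted p = 0.126) and -0.22 without WT replicate A (adjusted p = 0.11).

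Adam17, the sheddase of TNF and of several EGF receptor ligands, read 9.28, 9.23 and 9.18 in VEC, 8.88, 9.24 and 9.20 in WT, 9.48, 9.27 and 9.47 in AQA, 9.50, 9.31 and 9.39 in DQD, and 9.36, 9.39 and 9.30 in F191G. WT replicate A was the lowest array, and the other WT arrays lay among those of VEC. Adam17 was higher in DQD than in WT by 0.30 (SE 0.0971, limma adjusted p = 0.043; 0.40 after centring), at 0.44 within batch A and 0.15 within batch B, and by 0.19 without WT replicate A (adjusted p = 0.136). Adam8, which is known from leukocytes and tumour cells, read 7.48, 7.06 and 7.27 in VEC, 6.55, 7.16 and 7.13 in WT, 6.89, 6.64 and 6.70 in AQA, 6.87, 7.00 and 7.08 in DQD, and 7.07, 6.73 and 6.67 in F191G. Only AQA lay below VEC without overlap (difference -0.53, SE 0.163, limma adjusted p = 0.145). Adam9, the Notch and E-cadherin sheddase Adam10, Adam12 and Adam19 were called in no comparison, and their group means spanned from 0.136 to 0.336.

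Of the 5 ADAMTS genes, Adamts9 rose in WT and in AQA. Adamts9, a proteoglycan-cleaving enzyme, read 7.76, 8.02 and 7.66 in VEC, 8.28, 8.40 and 8.22 in WT, 8.65, 8.21 and 8.61 in AQA, 7.90, 8.14 and 7.88 in DQD, and 8.26, 8.39 and 8.26 in F191G. WT, AQA and F191G overlapped each other and lay above VEC and DQD, which also overlapped. The rise over VEC was 0.49 in WT (SE 0.123, 1.40-fold, limma adjusted p = 0.0253; 0.45 within batch A and 0.56 within batch B) and 0.68 in AQA (SE 0.123, 1.60-fold, limma adjusted p = 0.0312; 0.55 within batch A and 0.95 within batch B). F191G read 0.49 above VEC (SE 0.127, limma adjusted p = 0.177) and DQD 0.16 (SE 0.127, adjusted p = 0.458). Both calls were lost without VEC replicate A (adjusted p = 0.0723 in WT and 0.0904 in AQA) or VEC replicate C (0.141 and 0.202). With Twist1 as a covariate the WT difference was 0.27 (adjusted p = 0.225), and on the arrays compared alone the adjusted p was 0.132 in WT and 0.109 in AQA. The call in WT was also lost without WT replicate A (0.0611) or B (0.0518), and the call in AQA without AQA replicate A or C, DQD replicate C or F191G replicate C (0.0504 to 0.186).

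Adamts9 is the only member with more than 1 probe set, and its 6 probe sets gave a check of the level. In a fit over all 20852 probe sets with a single symbol, every probe set of Adamts9 was higher than VEC in WT, by 0.23 to 0.58, and 4 of the 6 were called. In AQA all 6 were called, with differences from 0.43 to 0.88. F191G differences ran from 0.25 to 0.58 and DQD differences from 0.12 to 0.38. Probe set 10546432, the dimmest of the 6 with group means of 6.93 for VEC, 7.51 for WT, 7.82 for AQA, 7.32 for DQD and 7.50 for F191G, gave the largest WT and AQA differences. AQA had the highest mean of the 5 groups in all 6. These probe sets carry the same gene symbol and were read on the same arrays, so they are not replicates of each other.

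**Figure D3:**
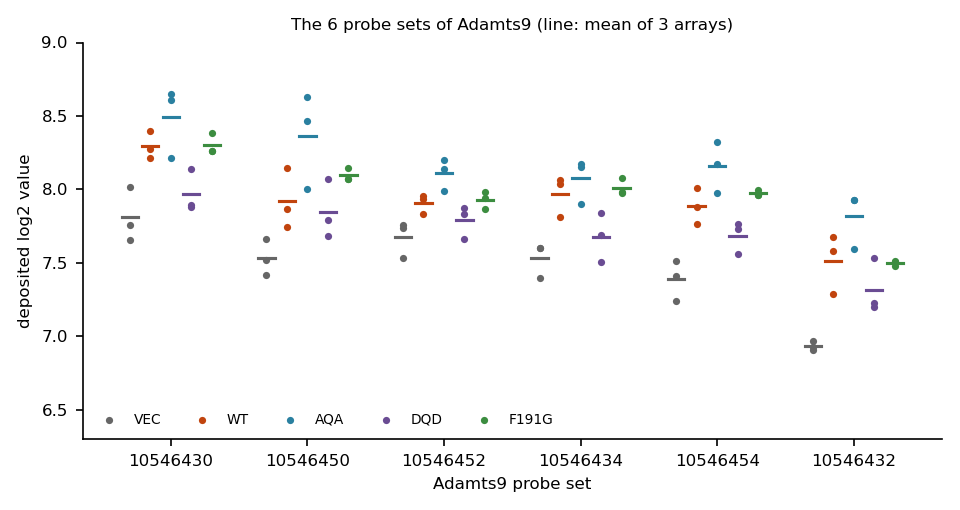
Deposited log2 values (y axis) of the 6 Adamts9 probe sets (x axis) on each array, coloured by group, with a line at the mean of 3 arrays. In each probe set the AQA mean is the highest and the VEC mean the lowest, and DQD lies between VEC and the remaining groups.

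Adamts1, whose product cleaves versican and aggrecan, read 10.06, 9.92 and 9.92 in VEC, 9.56, 9.85 and 9.94 in WT, 10.01, 9.89 and 9.92 in AQA, 10.12, 10.03 and 10.12 in DQD, and 10.23, 10.18 and 10.11 in F191G. DQD and F191G lay above WT, and WT replicate A was the lowest array. Adamts1 was higher than WT by 0.39 in F191G (SE 0.0908, limma adjusted p = 0.0341) and by 0.31 in DQD (SE 0.0908, limma adjusted p = 0.0308; 0.42 after centring). Within batches A and B they were 0.53 and 0.21 for F191G and 0.41 and 0.14 for DQD. Without WT replicate A these were 0.29 (adjusted p = 0.0706) and 0.20 (adjusted p = 0.0863). Adamts15, a versican-cleaving relative, read 5.17, 5.27 and 5.27 in VEC, 5.20, 5.21 and 5.27 in WT, 5.16, 5.07 and 4.87 in AQA, 4.81, 4.86 and 5.08 in DQD, and 5.21, 5.21 and 5.15 in F191G. DQD lay below VEC and WT without overlap, and AQA below both as well. Adamts15 fell from WT to DQD by 0.31 (SE 0.086, limma adjusted p = 0.0255), with -0.20 after centring (adjusted p = 0.106). The aggrecanase genes Adamts4 and Adamts5 were called in no comparison.

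The 4 plasminogen activator genes and their partners were called in none of the 8 comparisons. Plat, tissue plasminogen activator, read 8.32, 8.67 and 8.38 in VEC, 9.47, 8.52 and 8.77 in WT, 8.13, 8.55 and 8.21 in AQA, 8.07, 8.55 and 8.41 in DQD, and 8.32, 8.44 and 8.34 in F191G. The high WT mean, 8.92 ± 0.49 (SD, n = 3), came with WT replicate A far above the other arrays. WT differed from VEC by 0.47 (SE 0.206, limma adjusted p = 0.16), and the pair overlapped. Plaur, the urokinase receptor, read 9.38, 9.44 and 9.37 in VEC, 9.60, 9.27 and 9.44 in WT, 9.02, 9.22 and 9.07 in AQA, 9.33, 9.56 and 9.37 in DQD, and 9.46, 9.45 and 9.38 in F191G. AQA was the lowest group, without overlap, and its differences were -0.30 from VEC (SE 0.0891, limma adjusted p = 0.135) and -0.33 from WT (SE 0.0891, adjusted p = 0.0608). Plau, urokinase itself, stayed between 5.23 and 5.53 on all 15 arrays, and Serpinb2, an inhibitor of urokinase, between 3.58 and 3.93.

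Serpinf1 had the largest rise of the set. It encodes PEDF, a secreted serpin without protease inhibition that is known to restrain angiogenesis. It read 5.96, 5.95 and 5.73 in VEC, 7.59, 6.53 and 6.96 in WT, 5.43, 6.31 and 5.90 in AQA, 5.47, 5.91 and 5.79 in DQD, and 6.39, 6.17 and 6.42 in F191G. WT lay above all other arrays, and F191G lay above VEC without overlap. The rise in WT was 1.15 (SE 0.246, 2.21-fold, limma adjusted p = 0.0138), at 1.10 within batch A and 1.23 within batch B, and it was 0.85 without WT replicate A (adjusted p = 0.039) and 1.05 without VEC replicate C (adjusted p = 0.0867). F191G differed from VEC by 0.45 (SE 0.252, limma adjusted p = 0.526) and from WT by -0.70 (SE 0.252, adjusted p = 0.0928). Serpinf1 fell from WT to DQD by 1.30 (SE 0.252, 2.47-fold, limma adjusted p = 0.0107; -1.19 after centring), at -1.59 within batch A and -1.11 within batch B. AQA differed from WT by -1.15 (SE 0.246, adjusted p = 0.0526).

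Hpse, heparanase, which cuts heparan sulphate chains, read 5.02, 5.06 and 5.04 in VEC, 5.32, 5.19 and 5.29 in WT, 5.28, 5.30 and 5.12 in AQA, 5.01, 4.95 and 5.07 in DQD, and 4.98, 5.06 and 5.17 in F191G. WT and AQA overlapped, and WT lay above VEC, DQD and F191G. The rise in WT was 0.23 (SE 0.0698, 1.17-fold, limma adjusted p = 0.0466), at 0.22 within batch A and 0.25 within batch B, and leaving out any of 11 of the 15 arrays ended the call. Hpse fell from WT to DQD by 0.26 (SE 0.0715, limma adjusted p = 0.0243), with -0.15 after centring (adjusted p = 0.0975). Serpinh1, a collagen chaperone of the endoplasmic reticulum, was called in no comparison, with group means spanning 0.181.

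**Figure D4:**
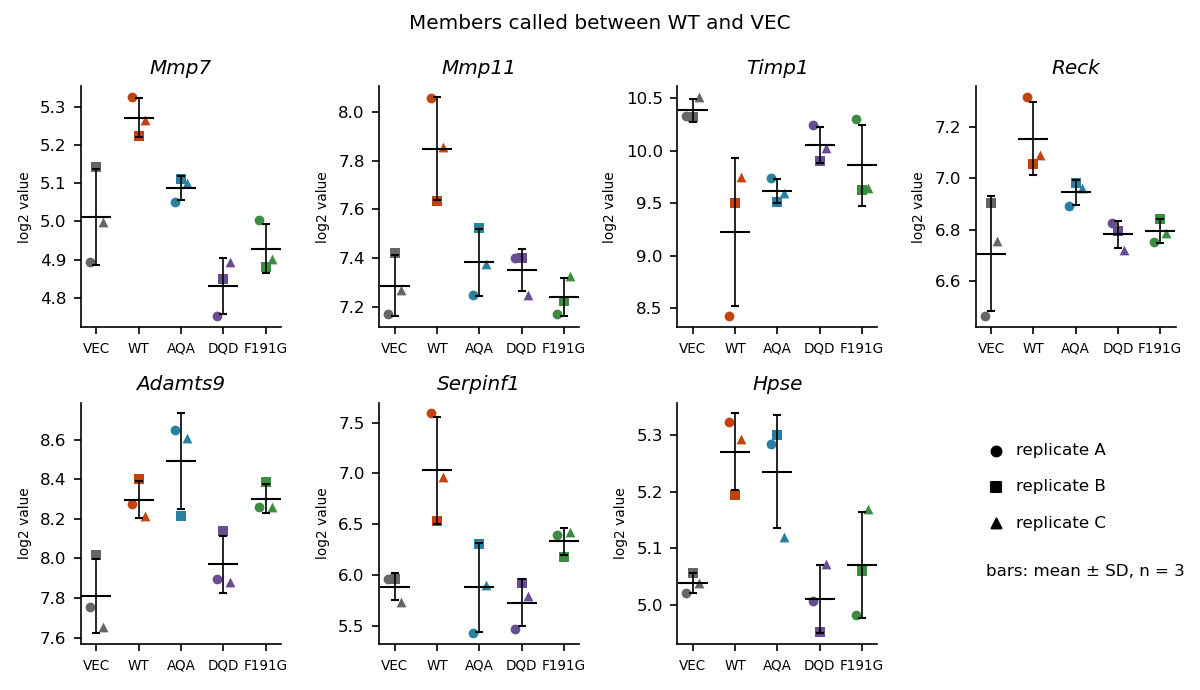
Log2 values (y axes, each with its own range) by group (x axes) of the 7 members called between WT and VEC, with symbols for replicates A, B and C and bars for the mean and SD of 3 arrays. The WT arrays are the highest in Mmp7, Mmp11, Reck and Serpinf1, and replicate A is the WT array farthest from VEC in Mmp7, Mmp11, Timp1, Reck, Serpinf1 and Hpse.

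The WT calls differed in how many of the leave-outs ended them. Over the leave-outs of a VEC or WT array, the rise of Mmp11 stayed between 0.45 and 0.68 and that of Serpinf1 between 0.85 and 1.41. The Timp1 difference ranged more widely, from -1.49 without WT replicate C to -0.74 without WT replicate A. None of the 7 was called without VEC replicate C, although no difference changed sign.

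**Figure D5:**
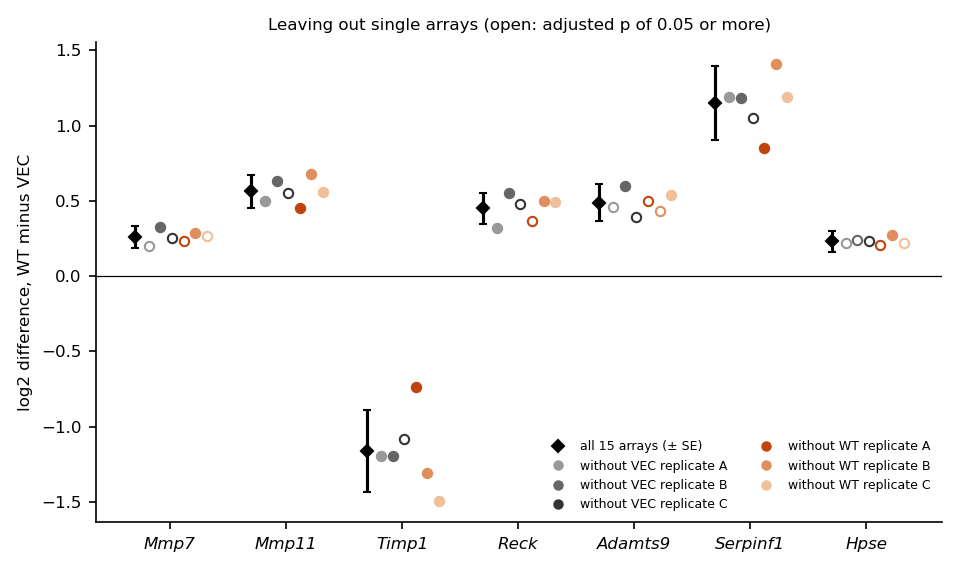
Log2 difference between WT and VEC (y axis) of the 7 called members (x axis), with all 15 arrays (diamond, ± SE) and without each VEC or WT array (circles, open where limma's adjusted p was 0.05 or more). Mmp11, Timp1 and Serpinf1 keep filled circles except without VEC replicate C, and Hpse is filled only without WT replicate B.

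The promoters of the members called between WT and VEC are shown because these genes moved in the same comparison, and Twist1 binds E-boxes. Sequences are from RefSeq on GRCm38.p6, from 250 bases before to 50 bases after the annotated start, and 26 of the 38 members had at least 1 such window. Capitals mark an E-box (CANNTG, the same class on both strands) or an AP-1 site (TGANTCA, likewise), the site of the Fos and Jun factors that is textbook knowledge in MMP promoters.

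Timp1, chrX:20869916-20870215, plus strand: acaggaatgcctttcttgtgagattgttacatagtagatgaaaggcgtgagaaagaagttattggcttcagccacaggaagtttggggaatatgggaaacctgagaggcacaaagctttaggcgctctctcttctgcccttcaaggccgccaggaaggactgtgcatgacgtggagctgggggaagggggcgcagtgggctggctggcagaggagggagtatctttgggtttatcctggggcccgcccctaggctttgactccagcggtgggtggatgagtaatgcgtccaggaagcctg
Serpinf1, chr11:75422574-75422873, minus strand: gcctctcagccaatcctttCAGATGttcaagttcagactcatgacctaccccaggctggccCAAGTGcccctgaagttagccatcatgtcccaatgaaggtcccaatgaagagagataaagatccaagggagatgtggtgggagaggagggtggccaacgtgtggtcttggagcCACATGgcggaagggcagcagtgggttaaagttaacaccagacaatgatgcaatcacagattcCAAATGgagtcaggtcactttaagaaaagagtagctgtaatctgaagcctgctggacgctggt
Mmp11, chr10:75932453-75932752, minus strand: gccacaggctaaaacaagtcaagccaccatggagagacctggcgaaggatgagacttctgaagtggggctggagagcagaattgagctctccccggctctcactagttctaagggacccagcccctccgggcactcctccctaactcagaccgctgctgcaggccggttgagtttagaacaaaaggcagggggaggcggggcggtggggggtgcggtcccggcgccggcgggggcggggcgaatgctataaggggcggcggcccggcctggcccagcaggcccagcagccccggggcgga
Mmp7, chr9:7691840-7692139, plus strand: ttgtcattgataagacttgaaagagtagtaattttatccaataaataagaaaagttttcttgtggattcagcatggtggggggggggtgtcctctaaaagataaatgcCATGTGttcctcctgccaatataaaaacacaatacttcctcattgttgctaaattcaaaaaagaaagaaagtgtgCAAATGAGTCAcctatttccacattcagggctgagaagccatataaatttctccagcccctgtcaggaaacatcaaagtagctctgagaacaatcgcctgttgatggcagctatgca
Reck, chr4:43875280-43875579, plus strand: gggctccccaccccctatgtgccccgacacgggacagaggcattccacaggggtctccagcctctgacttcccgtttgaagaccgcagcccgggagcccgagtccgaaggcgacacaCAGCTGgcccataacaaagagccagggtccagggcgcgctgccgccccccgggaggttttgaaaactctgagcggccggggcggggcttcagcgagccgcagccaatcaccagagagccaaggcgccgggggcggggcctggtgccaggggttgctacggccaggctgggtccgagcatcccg
Adamts9, chr6:92943485-92943784, minus strand: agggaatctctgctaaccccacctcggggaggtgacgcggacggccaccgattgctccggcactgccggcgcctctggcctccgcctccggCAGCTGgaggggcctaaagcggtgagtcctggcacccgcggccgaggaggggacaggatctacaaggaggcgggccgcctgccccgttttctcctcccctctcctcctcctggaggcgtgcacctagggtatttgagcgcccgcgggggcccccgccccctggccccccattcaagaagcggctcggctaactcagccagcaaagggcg
Hpse, chr5:100719667-100719966, minus strand: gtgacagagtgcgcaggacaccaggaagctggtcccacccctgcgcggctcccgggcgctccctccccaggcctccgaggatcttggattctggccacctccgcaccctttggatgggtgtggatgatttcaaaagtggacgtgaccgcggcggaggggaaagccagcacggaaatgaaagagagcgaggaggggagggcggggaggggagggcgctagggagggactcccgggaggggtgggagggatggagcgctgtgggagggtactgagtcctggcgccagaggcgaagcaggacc

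Of these 7 windows, those of Timp1, Mmp11 and Hpse held neither motif. Serpinf1 held 4 E-boxes, Mmp7 held 2 and Reck and Adamts9 held 1 each. The Reck and Adamts9 matches have the form CAGCTG, 133 and 159 bases before the start. In the Mmp7 window the nearer E-box shares 2 bases with the AP-1 match. A further annotated start of Mmp7 has 2 E-boxes and no AP-1 match. Over all genes tested with a window, 71.3% held CANNTG, and 16 of the 26 members did (61.5%). CAGCTG was in 18.2% of genes and in 6 of the 26 members: Reck, Adamts9, Timp2, Timp4, Adam17 and Adam19. CATATG was in 3.22% of genes and in 0 members. Matches are descriptions of letters in these windows and do not show binding.

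AP-1 matches stood in 8 of the 26 members (30.8%), against 8.0% of all genes with a window. The 8 are Mmp3, Mmp7, Mmp10, Mmp12, Mmp13, Plaur, Serpinb2 and Adam19. Of them 5 are among the 6 Mmp members on chromosome 9, which stand in the order Mmp13, Mmp12, Mmp3, Mmp10, Mmp8 and Mmp7. Genes outside the members were not placed. The surroundings of 4 of these chromosome 9 matches are shown, 41 bases each, because they are alike in motif and near the same place before the start.

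Mmp13, chr9:7272462-7272502, plus strand: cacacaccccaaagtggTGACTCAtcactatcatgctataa
Mmp12, chr9:7347313-7347353, plus strand: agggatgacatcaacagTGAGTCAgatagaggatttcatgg
Mmp3, chr9:7445759-7445799, plus strand: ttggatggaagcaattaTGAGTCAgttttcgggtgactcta
Mmp10, chr9:7502262-7502302, plus strand: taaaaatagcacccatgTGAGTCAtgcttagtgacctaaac

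The match starts 35 bases before the annotated start in Mmp13, 44 in Mmp12, 46 in Mmp3, 63 in Mmp10 and 63 in Mmp7. Of the 8 members with the motif, Mmp7 alone was called between WT and VEC, and Mmp7 and Mmp13 between DQD and WT. Differences between WT and VEC were -0.05 for Mmp13, 0.08 for Mmp12, 0.12 for Mmp3 and 0.01 for Mmp10, and none was called.

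Other genes of the pathway, none of them a member, comprised 71 names of which 65 were measured. Of these, 9 rose and 0 fell between WT and VEC (7.06% of all genes rose and 5.72% fell), against 6, 5 (with 1 lower) and 1 when replicate A, B or C of VEC was left out and 3 when WT replicate A was. Lrp1, the endocytic receptor that clears protease and inhibitor complexes, rose by 1.04 (SE 0.172, limma adjusted p = 0.00644), from 7.20 ± 0.17 to 8.24 ± 0.39 (SD, n = 3). Its co-listed plasminogen gene Vtn, vitronectin, rose by 0.72 (SE 0.220, adjusted p = 0.049). With WT replicate A left out, an alternative chosen after the values were seen, its difference was 0.40 (adjusted p = 0.161), and 11 of the 15 leave-outs ended the call. Among 23 activating and membrane proteases and their inhibitors 6 rose. The procollagen proteinase enhancer gene Pcolce rose by 0.55 (SE 0.0822, adjusted p = 0.00462), and Furin, the convertase that activates membrane-type MMPs and Mmp11, by 0.42 (SE 0.0921, adjusted p = 0.0148). Prss8, prostasin, rose by 1.65 (SE 0.385, adjusted p = 0.0185) and Rhbdf2, which carries Adam17 to the surface, by 0.62 (SE 0.156, adjusted p = 0.025). Of 22 further ADAM and ADAMTS family genes Adamtsl5 rose (0.30, SE 0.0876, adjusted p = 0.0434), a call that 10 of the 15 leave-outs ended. Without WT replicate A the calls of Furin (limma adjusted p = 0.0576) and Rhbdf2 (limma adjusted p = 0.0835) were lost too. Of 8 other MMP genes limma called 0 (0 at an unadjusted p under 0.05).

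In DQD against WT, 17 of the 65 fell and 1 rose (12.8% and 11.8% of all genes), or 8 and 1 after median centring, 7 and 0 without WT replicate A, 11 and 1 without WT replicate C, and 0 by limma without DQD replicate A (22 at an unadjusted p under 0.05). Prss8 fell by 2.01 (SE 0.395, limma adjusted p = 0.0111), Lrp1 by 0.96 (SE 0.176, adjusted p = 0.00977) and Pcolce by 0.77 (SE 0.0843, adjusted p = 0.00709). In F191G against WT 6 fell (3.95% of all genes), among them Sulf2, which edits heparan sulphate, by 0.75 (SE 0.166, limma adjusted p = 0.0316), and by limma 0 fell without WT replicate A or any F191G replicate (10 to 15 at an unadjusted p under 0.05). In AQA against WT 3 fell (0.42% of all genes): Furin by 0.48 (SE 0.0921), Lrp1 by 0.88 (SE 0.172) and Pcolce by 0.40 (SE 0.0822). That count was 13 without WT replicate B, 10 without AQA replicate B, and 0 by limma without any of 12 of the 15 arrays or after centring (13 to 19 at an unadjusted p under 0.05). Sulf2 fell in AQA against VEC by 0.79 (SE 0.162, limma adjusted p = 0.0426), a call that 11 of the 15 leave-outs ended. By limma 0 of the 65 were called in F191G against VEC, in DQD against VEC or between DQD and AQA (4, 17 and 10 at an unadjusted p under 0.05).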

How the data were processed

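RNA of 15 samples was read on Affymetrix Mouse Gene 1.0 ST arrays. The deposited values are on the log2 scale: per the submitters' processing notes the authors used RMA and limma, and per the series' design text values were normalized to Twist1, though its form is unstated in what was used here. The deposited values hold no batch offset within groups. They were used as deposited, and the batch term was kept so that its degree of freedom is counted.

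Of 23811 probe sets, 20852 had 1 gene symbol in the platform annotation, 1440 had several and 1519 were not listed there. The brightest probe set per gene gave 19297 genes, and the 38 members matched RefSeq by ID. A linear model with group and batch was fitted to all genes and arrays (limma 3.58.1, R 4.3.3, 9 residual degrees of freedom), and 8 contrasts and an F-test were taken with Benjamini-Hochberg adjustment over all genes and a threshold of 0.05. The code was tested on simulated data. Arrays per group (3) limit the precision, and no groups of 3 were searched for outliers.

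Members called in any test, and the brightest and most variable member of each role, are given per array. Of each list of non-members, up to 4 called genes with the smallest adjusted p are named. The members and lists were chosen with earlier results of these data known. Alternatives covered batch, replicate, Twist1 covariate, scaling, filter, array weights and each array left out.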

Additional observations from a re-analysis of the deposited data

How the results depend on the processing

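Counts below are of the 38 members called by limma, and where a count is 0 the number at an unadjusted p under 0.05 is in brackets. The shares of all genes under these settings are not given, so the changes cannot be read as particular to the members. Calls among the 65 other genes of the pathway moved as well. Between WT and VEC 9 rose, and 1 without VEC replicate C. From WT to DQD 17 fell, and 0 without DQD replicate A. Leaving out each array in turn, the count ran from 0 to 8 for WT against VEC, 0 to 0 for F191G against VEC, 0 to 4 for AQA against VEC, 0 to 1 for DQD against VEC, 0 to 8 for F191G against WT, 0 to 7 for AQA against WT, 0 to 13 for DQD against WT, 0 to 1 for DQD against AQA and 1 to 7 for the F-test. Since no batch difference was left in the deposited values, dropping the batch term moved no difference by more than 1.67e-09. The residual degrees of freedom went from 9 to 10, and standard errors changed too, since batch is not balanced over the groups. Dropping the term is no check of a batch effect. The count was then 1 for F191G against VEC, 2 for AQA against VEC, 2 for DQD against VEC, 6 for F191G against WT, 4 for AQA against WT, 1 for DQD against AQA and 13 for the F-test. With Twist1 as a covariate it was 0 [8] for WT against VEC, 0 [8] for AQA against VEC and 1 for the F-test. On the compared arrays alone it was 0 [7] for WT against VEC, 0 [8] for F191G against WT and 0 [12] for DQD against WT. For AQA against VEC it stayed 1, but the gene was Timp1 (lower) and not Adamts9. After quantile normalization it was 3 for AQA against VEC, 1 for AQA against WT and 7 for DQD against WT. Median centring gave 9 for DQD against WT. With the dimmest genes left out it was 3 for AQA against WT and 9 for DQD against WT, where 15 members were no longer tested. Array weights gave 4 for AQA against VEC, 4 for DQD against VEC, 7 for AQA against WT, 5 for DQD against AQA and 16 for the F-test. In batch A alone it was 0 [6] for WT against VEC, 0 [3] for AQA against VEC, 0 [5] for F191G against WT, 0 [10] for DQD against WT and 0 [4] for the F-test. In batch B alone it was 2 for WT against VEC, 1 for F191G against VEC, 0 [9] for AQA against VEC, 0 [9] for F191G against WT, 1 for DQD against WT and 0 [13] for the F-test. Each batch alone and the compared arrays alone hold fewer arrays, and the Twist1 value differs in mean between VEC and the forms. The cause of the other changes was not tested.

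Of 30 same-letter pairs of arrays 6 correlated above 0.1 in their deviations from the group means (range -0.85 to 0.225). All replicate A arrays were in batch A and all replicate C arrays in batch B. Taking out the batch offset before deposit therefore also took out part of any shift common to a letter. These correlations cannot tell whether the letters pair the arrays. With the replicate letter as a block beside batch, the count was 5 for WT against VEC, 0 [10] for AQA against VEC, 0 [11] for F191G against WT, 5 for DQD against WT and 1 for the F-test.

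Of the 25 member differences named as called, 0 changed sign under any alternative. Leaving out an array kept the call 263 times and ended it 112 times, and the other settings kept it 159 times and ended it 118 times. With 3 arrays a group and no detection calls, small differences of dim probe sets are the least certain of those given.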
